A study of Homo sapiens with 18 samples.

Results

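The ratio of each RNA's level in extracellular vesicles (EVs) to its level in the parent cells was compared between ATG7-/- and wild-type HEK293T cells. HEK293T is an established line derived from human embryonic kidney. The comparison used 12 of the 18 libraries of the series, in 4 groups: RNA of EVs and RNA of cells from wild-type cultures, and the same pair from ATG7-/- cultures, with 3 libraries each that the labels call biological replicates. All 4 groups had been kept without serum for 24 h, and the ATG7-/- cells were 1 clone, labelled F2, so an effect of the clone and an effect of the lost gene cannot be told apart. The ATG12-/- libraries, also from 1 clone (D9), were used only in a direct comparison near the end. Libraries of large RNA were made from total RNA with a stranded kit and 22 cycles of amplification, and sequenced from 1 end over 50 bases. The measure for a gene was a difference of differences on a log2 scale, ATG7-/- EVs minus ATG7-/- cells, less wild-type EVs minus wild-type cells. Of 57865 genes in the deposited table, 22810 reached 1 TPM (a share of the library per transcript, corrected for transcript length) in at least 3 of the 12 libraries and were tested. The change of a gene is the sum of an EV part, the difference between the genotypes in EVs, and the cell difference with its sign turned. It is called carried by EVs where the EV part makes up at least 0.75 of it, carried by cells where the EV part makes up at most 0.25, and shared by both otherwise.

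ATG7 is the activating enzyme that starts the conjugation of ATG12 to ATG5 and of LC3 and its relatives (the ATG8 family) to lipids, the step that builds autophagosome membranes. In EV biology the same conjugation machinery is known for loading RNA-binding proteins such as HNRNPK and SAFB, and RNAs they hold, into vesicles. The comparison asks whether large RNAs leave the cells in other proportions when that machinery is broken.

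The read numbers behind the TPM could be recovered from the size of the steps in the table, and they were small. They came to 1112367, 1579113 and 892942 reads in the wild-type EV libraries and 2592121, 1252606 and 740146 reads in ATG7-/- EVs. The cell libraries held 482500, 1095999 and 896127 reads in wild type and 896298, 702546 and 436825 reads in ATG7-/-. EVs showed 13957 to 14663 genes at 1 TPM or more in wild type and 14160 to 14716 in ATG7-/-, while cells showed 19716 to 20509 and 18464 to 19750. ATG7 itself was listed at 19.4, 14.9 and 13.3 TPM in wild-type EVs and 15.6, 13.5 and 11.2 TPM in ATG7-/- EVs. In cells it stood at 8.14, 11.1 and 13.1 TPM in wild type and 8.06, 11.2 and 12.9 TPM in ATG7-/-. The genotypes overlapped in EVs and in cells, and the change was 0.03 (SE 0.48, limma adjusted p = 0.989); the kind of edit is not given, so the transcript level does not check the genotype. Of 12 markers of the HEK293 line, 10 reached 1 TPM in 3 libraries, with summed levels of 301 to 495 TPM in EVs and 123 to 193 TPM in cells, and PAX8 was listed at 0 in all 12. Markers of liver or serum proteins summed to at most 0.398 TPM and those of keratinocytes to at most 1.92 TPM in any library. Blood markers reached at most 15.3 TPM, with HBB and CD3E listed at 0 in all 12. Fibroblast markers summed to 12.9 to 42.5 TPM in wild-type EVs and 5.23 to 12.8 TPM in ATG7-/- EVs, without overlap, and to 12.3 to 23.0 and 13.1 to 26.2 TPM in cells. The 2 of their 5 members tested, DCN and COL1A1, had changes of -1.41 and -1.24 that did not pass (limma adjusted p = 0.755 and 0.781), and their part in the results was not tested.

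In the fit on TPM (limma on log2 of scaled TPM + 1), 93 genes were called at an adjusted p under 0.05, which is 0.408% of the genes tested. The ratio was higher in ATG7-/- for 73 of them (0.32% of the genes tested) and lower for 20 (0.0877%), and 2132 genes (9.35%) had an unadjusted p under 0.05. For all 93 the 9 EV-minus-cell differences of ATG7-/- lay on one side of the 9 of wild type, as they did for 6.8% of the genes tested. Cells carried the change of 61 genes, EVs that of 23, and both shared that of 9. The count was 12, 19 or 16 without wild-type cell replicate 1, 2 or 3 and 59 without ATG7-/- cell replicate 3. Over all genes the median change was 0.21, from a median of 0.00 in EVs and -0.21 in cells; without scaling between libraries it was 0.05, so values near 0.2 lie at the centre of the distribution. Bulk libraries give shares of RNA, so fewer vesicles or cells holding an RNA and less of it in each cannot be told apart.

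**Figure D1:**
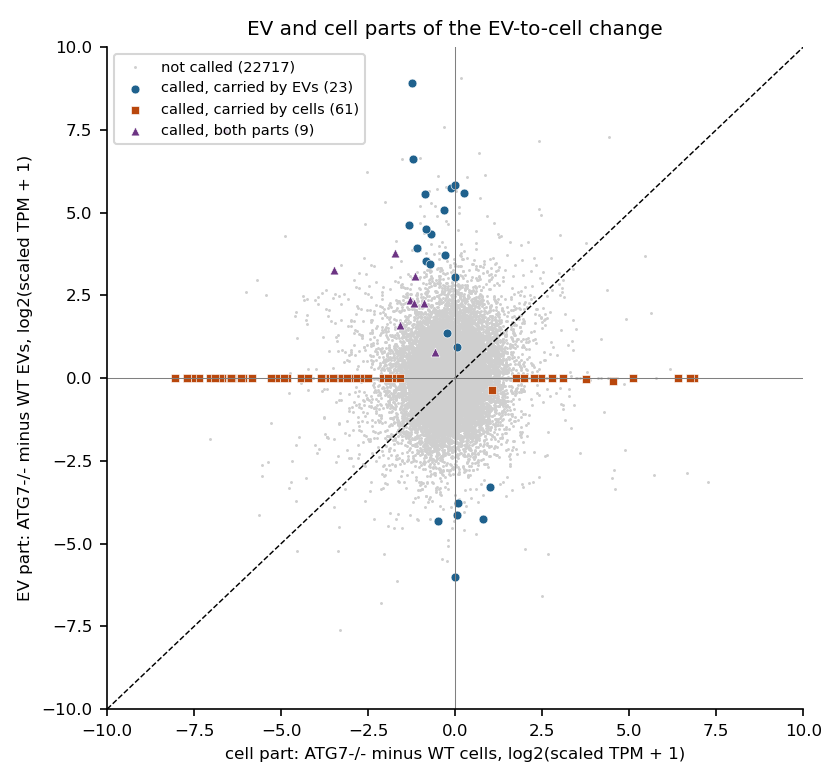
Each point is 1 of the 22810 genes tested, placed by its difference between ATG7-/- and wild type in cells (x axis) and in EVs (y axis), both on the log2(scaled TPM + 1) scale; the dashed line marks equal differences, where the EV-to-cell ratio is unchanged. The 61 called genes carried by cells lie on or near the horizontal line of no difference in EVs, and the 23 carried by EVs lie near the vertical line.

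The number of reads separated these groups. For each gene the reads of the 3 libraries were summed in the group that held most. This sum had a median of 63.0 over all genes tested and of 8.0 over the 93 called genes. Among the 61 genes carried by cells the median was 5.0 reads, 54 (88.5%) had no more than 10 reads, and 11 had 3 reads, 1 in each library. Among the 23 carried by EVs the median was 58.3 reads, none had 10 or fewer, and the range ran from 17.9 to 131000. The 9 genes shared by both had a median of 51.1 reads.

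**Figure D2:**
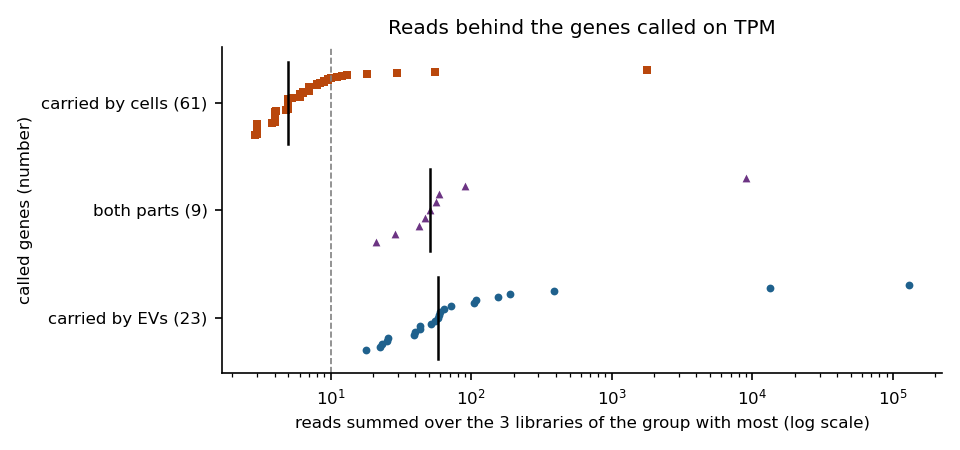
Each point is 1 of the 93 genes called on TPM, placed on a log axis by the reads summed over the 3 libraries of its highest group; black bars mark the median of each class and the dashed line marks 10 reads. Of the genes carried by cells 54 lie at or left of the line, and none of those carried by EVs or shared by both does.

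The genes with the largest changes in EVs were short RNAs and mRNAs that were listed at or near 0 in wild-type EVs and held by wild-type cells. RF02120, an annotated RNA of 94 bases at X:74280402-74280495 (GRCh38, plus strand), headed them. It lies inside FTX, a long noncoding RNA gene of the X-inactivation centre, on the other strand, and 98.9% of it faces FTX exons. Its sequence is shown because reads from either strand of this stretch would be given to one gene or the other, and whether the counting used the strand is not given in the sources used here. It is taken from GENCODE 29 on GRCh38.
RF02120: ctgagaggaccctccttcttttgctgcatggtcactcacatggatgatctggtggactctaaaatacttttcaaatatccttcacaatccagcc

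RF02120 was listed at 0 in the 3 wild-type EV libraries and at 471, 928 and 340 TPM in ATG7-/- EVs. Cells held it at 1310, 1770 and 2590 TPM in wild type and 825, 860 and 856 TPM in ATG7-/-. Every ATG7-/- EV library was thus above every wild-type one, and in cells the order was turned. The reads behind this were 14, 13 and 3 in ATG7-/- EVs against none in wild-type EVs, which makes it at least 7.82-fold higher per read when a count of 0 over the group is taken to allow 3 reads. Such bounds cover counting error only, since amplified reads are not independent molecules. The fitted change was 10.16 (SE 0.51, limma adjusted p = 1.38e-05), a size that depends on the pseudocount because a group is at 0. AL353804.2, a transcript overlapping FTX on its own strand at X:73958059-73969485, changed in the same direction by 5.52 (SE 0.57, adjusted p = 0.00114). It was also listed at 0 in wild-type EVs, against a mean of 15.4 TPM in ATG7-/- EVs, and both parts shared its change.

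Of the 23 genes carried by EVs, 9 were protein-coding, including SH3D19, which is described with the read numbers. NINJ2, a membrane protein of the ninjurin family (12:564296-663779), was listed at 0 in wild-type EVs and at 56.4, 37.7 and 62.4 TPM in ATG7-/- EVs. Cells held 37.8, 18.1 and 24.4 TPM in wild type and 12.8, 13.1 and 20.1 TPM in ATG7-/-. The EV groups did not overlap, with 38, 9 and 13 reads against none (at least 15.6-fold higher, with 3 reads allowed over the group), and the change was 6.44 (SE 0.54, adjusted p = 0.000356). AVIL, the actin-severing protein advillin (12:57797376-57818704), was listed at 1.38, 0 and 3.85 TPM in wild-type EVs and 148, 120 and 73.2 TPM in ATG7-/- EVs. Its cell levels overlapped, at 66.9, 142 and 56.4 TPM in wild type and 142, 144 and 60 TPM in ATG7-/-, and its change was 5.33 (SE 0.83, adjusted p = 0.0229). The reads of AVIL in EVs were 5, 0 and 13.1 in wild type and 25.1, 32.5 and 8 in ATG7-/-, which overlap. Over the group that is 5.04 and 14.3 RPM (reads scaled by library total), a far smaller contrast than in TPM. In both genes the TPM rested mostly on 1 short noncoding isoform, of 323 bases in NINJ2 and 226 bases in AVIL. Of the 50-base stretches of the NINJ2 isoform, 46.7% are shared with AC021054.1 on the opposite strand.

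Mitochondrial and splicing genes were among the others. ATP5PO, a subunit of the stalk of the mitochondrial ATP synthase, was listed at 0, 1.2 and 0 TPM in wild-type EVs and 60.8, 28.1 and 227 TPM in ATG7-/- EVs. Cells held 8.6, 11.6 and 10.4 TPM in wild type and 14.4, 14.1 and 5.07 TPM in ATG7-/-. Only the EV groups were apart, and the change was 5.86 (SE 0.99, adjusted p = 0.0374). The reads of ATP5PO in EVs were 0, 1 and 0 in wild type and 80, 15 and 8.8 in ATG7-/-, so the highest TPM came with the fewest reads of ATG7-/-. Its leading transcript has 157 bases. Of its 50-base stretches, 33.3% are shared with AP000311.1 on the same strand and 33.3% with LINC00649 on the opposite strand. MRPL9, a protein of the mitochondrial ribosome's large subunit, was listed at 0 in wild-type EVs and at 8.89, 17.9 and 14.9 TPM in ATG7-/- EVs, from 6, 9 and 10 reads. Its cell levels of 9.27, 14.7 and 18 TPM in wild type and 17.2, 7.77 and 12.4 TPM in ATG7-/- overlapped, and its change was 4.02 (SE 0.62, adjusted p = 0.022). SNRPG, a core Sm protein of the spliceosome, was listed at 0 in wild-type EVs and at 18.7, 11.8 and 59.7 TPM in ATG7-/- EVs, with a change of 5.35 (SE 0.96, adjusted p = 0.0465). Its cell groups overlapped, at 17.3, 14 and 18.7 TPM in wild type and 26.7, 4.43 and 7.19 TPM in ATG7-/-. Of the 50-base stretches of its leading transcript, 28.7% are shared with SNRPG pseudogenes. In MRPL9 36.5% are shared with OAZ3 on the opposite strand.

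The other protein-coding genes, 3 in number, fell in EVs. MCOLN1, the lysosomal calcium channel TRPML1 (19:7522626-7534009), stood at 27.1, 53.1 and 46.2 TPM in wild-type EVs and 1.28, 1.07 and 0.269 TPM in ATG7-/- EVs. Its cell levels were 10.5, 16 and 11.7 TPM in wild type and 14.5, 12.8 and 4.37 TPM in ATG7-/-. The EV groups were far apart, with 43, 100 and 44.7 reads against 14, 5.2 and 1, while the cell groups overlapped. The change was -3.82 (SE 0.7, adjusted p = 0.0497). Of the 50-base stretches of MCOLN1's leading transcript, 27.3% are shared with AC008878.2 on the same strand. SLC25A44, which carries branched-chain amino acids into mitochondria, went from 66, 59.6 and 195 TPM in wild-type EVs to 3.64, 5.43 and 2.47 TPM in ATG7-/- EVs, with 2.32 TPM in wild-type cells and 2.62 TPM in ATG7-/- cells on average. RBM19, an RNA-binding protein of ribosome assembly, went from 14, 19.4 and 31.6 TPM to 0.397, 1.08 and 1.45 TPM in EVs. Their changes were -4.2 (SE 0.72, adjusted p = 0.0405) and -4.28 (SE 0.76, adjusted p = 0.0462), and their wild-type and ATG7-/- EV libraries did not overlap. A noncoding gene antisense to a histone deacetylase locus, HDAC2-AS2, fell with them by 3.83 on the log2 scale (SE 0.67, adjusted p = 0.0435). The isoform mix weighs on SLC25A44 as on AVIL: in EVs its reads were 94, 232 and 63 in wild type and 80, 62 and 17 in ATG7-/-, a smaller contrast than its TPM, and a fit on read numbers over the same genes gave -1.42. In that fit RF02120 (5.26) and NINJ2 (5.79) passed. AVIL (2.95), ATP5PO (5.09), SNRPG (5.04), MRPL9 (4.03), MCOLN1 (-3.00) and RBM19 (-3.50) kept their direction and did not pass. In the fits on TPM that left out 1 library and kept the gene set, RF02120 and NINJ2 passed in all 12, AVIL in 8, MRPL9 in 6, ATP5PO in 4, SLC25A44 in 3, and MCOLN1, RBM19, SNRPG and HDAC2-AS2 in 2 each.

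**Figure D3:**
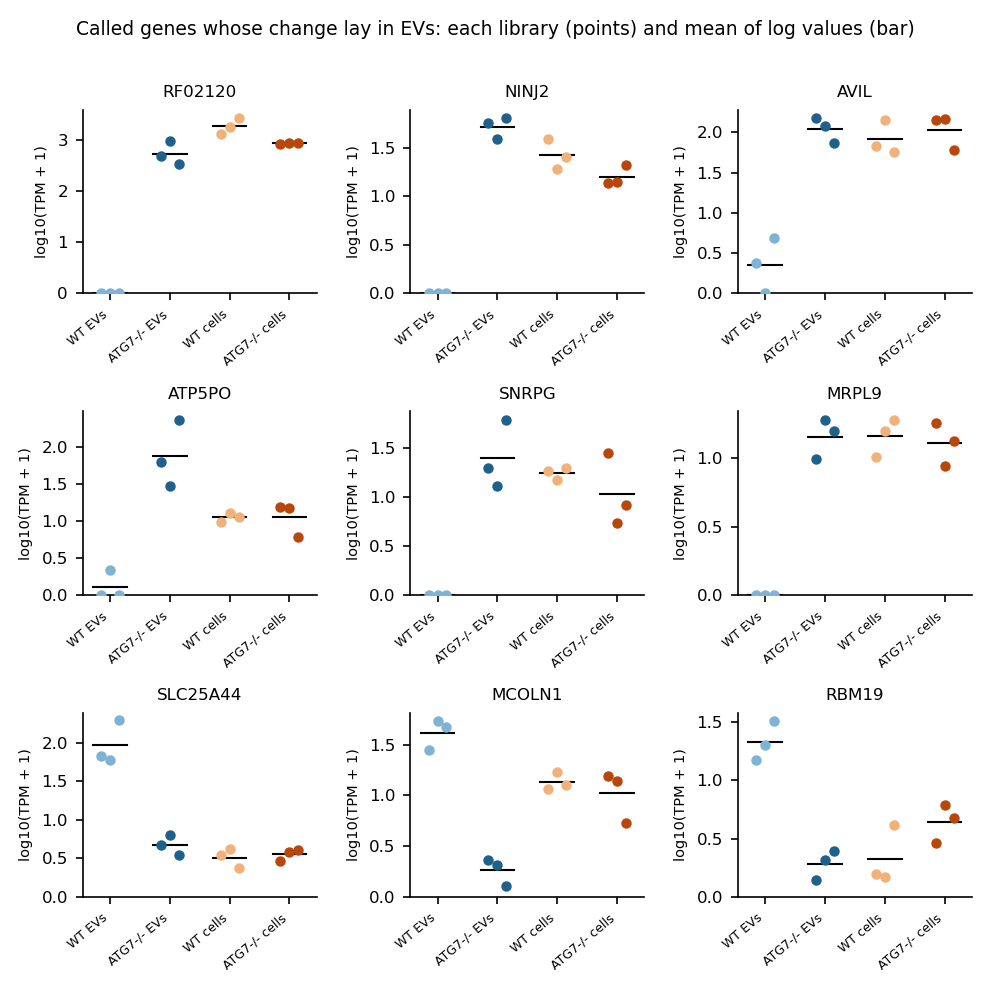
TPM of 9 called genes whose change lay in EVs, as log10(TPM + 1), for each library (points) of the 4 groups, with the mean of the log values as a bar. In RF02120, NINJ2, AVIL, ATP5PO, SNRPG and MRPL9 the wild-type EV libraries lie at or near 0 and the other 3 groups do not, and in SLC25A44, MCOLN1 and RBM19 wild-type EVs stand above ATG7-/- EVs.

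The EV part of these 23 genes passed the test for all 23 when the spread was shared over 12 libraries (0.737% of all genes tested did), and for 1 when the 6 EV libraries were fitted alone (0.0219%). The median SD between replicates on the log2 scale was 0.73 in wild-type EVs and 0.62 in ATG7-/- EVs, against 0.44 in wild-type cells and 0.47 in ATG7-/- cells. Of the 23, 12 were listed at 0 in wild-type EVs.

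The 9 genes shared by both had estimates above 0 in EVs and below 0 in cells; the EV part passed the test in 6 of them and the cell part in 1. UCA1, a long noncoding RNA known from bladder carcinoma, was listed at 0.552, 0 and 0.575 TPM in wild-type EVs and 7.1, 4.55 and 5.61 TPM in ATG7-/- EVs. In cells it stood at 7.45, 7.65 and 13.3 TPM in wild type and 3.73, 5.27 and 2.93 TPM in ATG7-/-. The groups did not overlap in either compartment, and the change was 3.44 (SE 0.57, adjusted p = 0.0345). CAMK2A, a calcium-dependent protein kinase, went from 0.258, 0 and 0 TPM to 2.94, 2.37 and 2.06 TPM in EVs and from 9.29, 4.86 and 5.83 TPM to 2.97, 1.23 and 1.18 TPM in cells. Its change was 3.19 (SE 0.57, adjusted p = 0.0462), again without overlap in either compartment. With 1 library left out and the gene set kept, UCA1 passed in 3 of 12 fits and CAMK2A in 1.

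The 61 genes carried by cells were mostly copies of small RNAs and pseudogenes. No EV library listed 58 of them above 0, so for these the EV-to-cell change is the cell difference alone. The cell part passed for all 61 with the spread of 12 libraries (0.592% of all genes tested did) and for 40 with that of the 6 cell libraries (0.285%). Of these 58, 54 (93.1%) had no more than 10 reads in their highest group, and the highest had 29.8. Copies of U6, the small nuclear RNA at the catalytic centre of the spliceosome, show what such a call rests on. RNU6-571P was listed at 611, 122 and 167 TPM in wild-type cells and at 0 in the other 3 groups, from 4, 2 and 2 reads (change 8.04, SE 0.77, adjusted p = 0.000611). RNU6-1043P showed the reverse, at 80.3, 105 and 167 TPM in ATG7-/- cells alone, from 1 read in each library, with a change of -6.86 (SE 0.52, adjusted p = 0.000302). At these depths 1 read of a transcript as short as RNU6-571P was worth 31.4 to 160 TPM, and 1 read of a 1000-base transcript was worth 0.195 to 0.993 TPM. The TPM of these copies therefore stood for single reads.

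The called microRNA precursors were 2, both carried by cells. MIR215 (1:220117853-220117962) was listed at 150, 120 and 164 TPM in wild-type cells and at 0 elsewhere, from 1, 2 and 2 reads, with a change of 7.35 (SE 0.48, adjusted p = 0.00011). MIR548O (7:102405742-102405855) was listed at 441, 176 and 80.2 TPM in wild-type cells and at 0 elsewhere, from 3, 3 and 1 reads, with a change of 7.71 (SE 0.77, adjusted p = 0.000856). Their mature forms (RefSeq, GRCh38.p14, with the seed, bases 2 to 8, in capitals) share no seed, and the libraries held large RNA, so these values are of the precursors.
hsa-miR-215-5p: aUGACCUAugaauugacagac
hsa-miR-215-3p: uCUGUCAUuucuuuaggccaaua
hsa-miR-548o-3p: cCAAAACUgcaguuacuuuugc

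The remaining 3 genes carried by cells were above 0 in EVs. AC005841.1, a noncoding RNA of 287 bases lying opposite exons of the chaperone gene FKBP4, stood at 1670, 1650 and 1980 TPM in wild-type cells and 3230, 4960 and 4120 TPM in ATG7-/- cells. Its EV levels were 4050, 4930 and 4250 TPM in wild type and 3860, 3000 and 2700 TPM in ATG7-/-, so the groups were apart in both compartments, widely in cells and narrowly in EVs. The change was -1.41 (SE 0.24, adjusted p = 0.0374), and its reads were 97, 240 and 211 in wild-type cells and 373, 439 and 229 in ATG7-/- cells. For PIAS4, a SUMO ligase, and GALNT1, a glycosyltransferase, the TPM change came with a change of isoform: their reads in cells were 3, 5 and 1 in wild type against 3, 6 and 4 in ATG7-/- for PIAS4, and 1, 10 and 5 against 11, 7 and 6 for GALNT1.

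The calls were concentrated in short, weakly covered transcripts. The leading transcript had a median length of 345 bases in the 93 called genes and 724 bases in all genes tested, and it was shorter than 600 bases in 91.4% of the former and 41% of the latter. Protein-coding genes made up 14% of the called genes and 58.5% of those tested, and pseudogenes 29% and 10.3%. A group listed at 0 occurred in 82.8% of the called genes and 23.7% of those tested. Of 1599 genes whose mean reached 100 TPM in a group, 24 were called (1.5%). Such a mean need not rest on many reads: MIR215 and MIR548O reached it in wild-type cells with 5 and 7 reads. Among the 5941 genes with group means of 5 TPM or more in all 4 groups, 4 were called (0.0673%): SH3D19, AD000091.1, AC021224.1 and AC005841.1. Among the 6587 genes with at least 1 TPM in all 12 libraries, fitted by themselves, limma called 0 (0.0%), and 693 had an unadjusted p under 0.05 (10.5%). Requiring 1 TPM in 3 EV and 3 cell libraries left 13661 genes, of which 10 were called (0.0732%), all higher.

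A fit on the recovered read numbers was therefore made (limma voom, genes with at least 10 reads in at least 3 of the 12 libraries), chosen after the TPM results were known. It tested 15570 genes and called 23 (0.148%), of which 15 were higher in ATG7-/- (0.0963%) and 8 lower (0.0514%). Unadjusted p-values under 0.05 numbered 1811. Its median change over all genes was 0.12. EVs carried the change of 10, cells that of 2, and both shared that of 11. The EV part passed the test in 20 of the 23 (7.37% of the genes tested) and the cell part in 5 (0.244%). Of the 93 genes called on TPM, 26 had enough reads to enter, and 4 were called in both fits. The TPM fit on these same 15570 genes called 6 (0.0385%), all higher, and voom on the 22810 genes called 45 (0.197%), among them 14 of the 23. RN7SK, RPPH1, RN7SKP80, ATF4 and PSME3 were not among these 14, with adjusted p-values of 0.0677, 0.124, 0.0839, 0.0677 and 0.0508. With any 1 library left out, 9 of the 23 were still called, namely FTX, AC021224.1, AD000091.1, SH3D19, CDR1, ESRG, AL138963.3, RN7SK and AC109466.1. The count fell to 9 without wild-type cell replicate 3, to 12 without ATG7-/- cell replicate 2, and to 14 without wild-type cell replicate 2 or without ATG7-/- cell replicate 3.

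FTX (X:73946555-74293574, minus strand), which produces a nuclear long noncoding RNA of the X-inactivation centre and hosts microRNAs, had the smallest p. It stood at 210, 233 and 202 TPM in wild-type EVs and 305, 299 and 337 TPM in ATG7-/- EVs. In cells it stood at 115, 114 and 121 TPM in wild type and 88.4, 89 and 81.7 TPM in ATG7-/-. The replicates were close and no group overlapped another, with EVs rising and cells falling. On read numbers the change was 1.27 (SE 0.13, voom adjusted p = 4.22e-05), of which 0.61 came from EVs and the rest from a fall by 0.67 in cells. On TPM it was 1.23 and did not pass (adjusted p = 0.123). TSIX, a noncoding gene of the same X-inactivation centre, was also called, with a change of 0.54 (SE 0.10, voom adjusted p = 0.0319). It passed in 5 of the 12 fits that left out a library. Of its leading transcript of 37027 bases, 20.3% lies opposite exons of other genes, with XIST the largest overlap. TSIX held 74800 RPM in wild-type cells and 78500 RPM in ATG7-/- cells. In EVs it held 12400 and 14600 RPM. How many of these reads came from XIST was not tested.

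SH3D19 (4:151102751-151325632), the gene of an SH3-domain adaptor, was among the most abundant genes called. It stood at 25500, 22300 and 23300 TPM in wild-type EVs and 44700, 40300 and 39000 TPM in ATG7-/- EVs. Cells held 7230, 6560 and 6810 TPM in wild type and 6660, 9340 and 7710 TPM in ATG7-/-. Only the EV groups were apart, and the change was 0.90 (SE 0.11, voom adjusted p = 0.000287), carried by EVs. The call on TPM (0.88, SE 0.15, limma adjusted p = 0.0441) held in 2 of 12 fits that left out a library. In voom on the 22810 genes SH3D19 had a change of 0.99 with an SE of 169 and an adjusted p of 1.0; 5 genes, TSIX among them, had an SE over 10 there and 0 in the fit on 15570 genes. Its leading transcript has 503 bases, 52.1% of it opposite exons of RPS3A, a ribosomal protein gene. The change of RPS3A itself was 0.21 (SE 0.45, limma adjusted p = 0.926), with means of 234 TPM in wild-type EVs and 24.0 TPM in wild-type cells.

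Several of the noncoding RNAs called lie opposite protein-coding genes or their copies. AD000091.1, a processed pseudogene of 287 bases (19:15611623-15611909) opposite a copy of the ribosomal protein gene RPL23A, stood at 10700, 11800 and 12000 TPM in wild-type EVs and 26500, 26400 and 28300 TPM in ATG7-/- EVs. Its cell levels overlapped, at 8050, 13800 and 9500 TPM in wild type and 10400, 9410 and 8730 TPM in ATG7-/-, and its change was 1.62 (SE 0.19, voom adjusted p = 0.000287). AL138963.3 (13:45340039-45341183), opposite TPT1, the translationally controlled tumour protein gene, stood at 3400, 3110 and 2900 TPM in wild-type EVs and 9110, 8420 and 9510 TPM in ATG7-/- EVs. It was higher in ATG7-/- cells too, at 2410, 2570 and 1950 TPM against 1180, 1430 and 1440 TPM. EVs rose by 1.67 and cells by 0.68 (adjusted p = 0.0156), which left a change of 0.98 (SE 0.14, voom adjusted p = 0.00239). AC021224.1 (18:32412182-32413236), opposite a pseudogene of HNRNPA1, rose in EVs from 736, 750 and 864 TPM to 1220, 1190 and 1320 TPM. Its cell levels were 736, 1010 and 1030 TPM in wild type and 721, 666 and 615 TPM in ATG7-/-, so that its change of 1.39 (SE 0.16, voom adjusted p = 0.000231) was shared by both. At least 20% of the leading transcript faced exons of another gene in 11 of the 23 genes (47.8%) and in 17.8% of the genes tested; among the 93 genes called on TPM the share was 16.1%, against 16.3% of those tested. Whether strand was used in the counting is not given in the sources used here, so reads of such a gene and of its partner cannot be told apart. The partners TPT1, RPL23A, HNRNPA1 and FKBP4 had changes of 0.26, 0.06, -1.49 and 0.44 on TPM, none of which passed the test. In wild-type EVs these partners had means of 154, 32.7, 55.4 and 41.1 TPM. The genes opposite them or their copies, AL138963.3, AD000091.1, AC021224.1 and AC005841.1, had means of 3140, 11500, 784 and 4410 TPM. Whether reads of one strand were counted for the gene on the other was not tested.

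CDR1 (X:140783578-140784366) stood at 379, 354 and 377 TPM in wild-type EVs and 840, 856 and 767 TPM in ATG7-/- EVs. Cells held 169, 271 and 186 TPM in wild type and 175, 191 and 145 TPM in ATG7-/-. The EV groups were far apart and the cell groups overlapped, and EVs carried the change of 1.73 (SE 0.23, voom adjusted p = 0.000769). CDR1 lies wholly opposite exons of LINC00632, from which a circular RNA is known to be made; no value is given here for that circle. ESRG, a noncoding RNA known from pluripotent stem cells (3:54632122-54639857), rose in EVs from 22.2, 21.1 and 29.1 TPM to 42.2, 40.6 and 39.9 TPM. In cells it went from 21.8, 19.7 and 21.3 TPM to 13.3, 7.66 and 9.02 TPM, with no overlap in either compartment, and its change was 2.10 (SE 0.30, voom adjusted p = 0.00239). AC109466.1, a long antisense RNA on chromosome 5, had a change of 1.40 (SE 0.22, voom adjusted p = 0.00648), with 244, 235 and 219 TPM in wild-type cells against 160, 148 and 147 TPM in ATG7-/- cells. Its EV levels were 78.3, 53.8 and 71.3 TPM in wild type and 78.6, 80.5 and 99.7 TPM in ATG7-/-, a narrow gap.

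The genes whose ratio fell included RN7SK and RPPH1, abundant noncoding RNAs made by RNA polymerase III. All of their leading transcripts (100%) overlaps exons of another gene on the same strand, RF00100 for RN7SK and AL355075.4 for RPPH1. Reads can be split between each pair, and no values are given here for these 2 overlapping genes. RN7SK (6:52995621-52995948), the 7SK RNA, which sequesters P-TEFb, the kinase that releases paused polymerase, stood at 17600, 23200 and 21200 TPM in wild-type EVs and 10100, 9970 and 8310 TPM in ATG7-/- EVs. Cells held 5000, 8110 and 4690 TPM in wild type and 8170, 9100 and 9210 TPM in ATG7-/-. The groups did not overlap in either compartment, with ATG7-/- lower in EVs and, narrowly, higher in cells, and the change was -1.39 (SE 0.21, voom adjusted p = 0.00444). RN7SKP80, a 7SK pseudogene whose reads can be split with RN7SK, changed by -1.94 (SE 0.37, adjusted p = 0.0378) and passed in 3 of the 12 fits that left out a library. RPPH1 (14:20343075-20343407), the catalytic RNA of RNase P, which trims the leader off transfer RNA precursors, stood at 10300, 13600 and 11600 TPM in wild-type EVs and 4760, 4320 and 3570 TPM in ATG7-/- EVs. Its cell levels of 1020, 920 and 598 TPM in wild type and 905, 1910 and 1770 TPM in ATG7-/- overlapped by 1 library. The change of -1.98 (SE 0.33, voom adjusted p = 0.00921) was lost without wild-type cell replicate 3 or without ATG7-/- cell replicate 2 (adjusted p up to 0.109). RN7SL2, the RNA of the signal recognition particle and likewise a polymerase III product, had a change of -0.35 (SE 0.26, limma adjusted p = 0.753) on TPM. The Y and vault RNAs, polymerase III products as well, had estimates mostly on the other side, with 5 of 6 above 0 and a median of 0.95 on TPM, 3 of 4 above 0 and a median of 1.17 on read numbers, and none called. RNY1 among them had 62.2 RPM in wild-type EVs and 133 RPM in ATG7-/- EVs, with a change of 1.35 (SE 0.64, limma adjusted p = 0.561) on TPM.

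Protein-coding genes in this fit were few. NUTM2B had the largest change of the genes called, 5.81 (SE 1.16, voom adjusted p = 0.0469), and passed in 1 of the 12 fits that left out a library. It was listed at 0, 0 and 0.0908 TPM in wild-type EVs and 1.7, 3.82 and 0.538 TPM in ATG7-/- EVs. ATF4, the transcription factor of the amino acid and stress response (22:39519695-39522685), stood at 487, 417 and 454 TPM in wild-type EVs and 664, 652 and 766 TPM in ATG7-/- EVs. Its cell levels overlapped, at 176, 230 and 289 TPM in wild type and 224, 213 and 216 TPM in ATG7-/-. EVs carried the change of 0.94 (SE 0.19, voom adjusted p = 0.0433), which passed in 3 of the 12 fits that left out a library. RAPH1, the actin regulator lamellipodin, went from 24.4, 24 and 21.8 TPM to 50.4, 50.1 and 41.8 TPM in EVs with overlapping cell levels (change 1.19, SE 0.22, adjusted p = 0.0253; passed in 7 of the 12 fits). FSIP2, a sperm-tail sheath protein, fell in cells from 241, 214 and 238 TPM to 163, 128 and 147 TPM, and its change was 1.05 (SE 0.19, adjusted p = 0.0209; passed in 7 of the 12 fits). ZNF90, a zinc finger protein, changed by 1.27 (SE 0.22, adjusted p = 0.0167), and PSME3, the proteasome activator subunit gamma, by -1.27 (SE 0.25, adjusted p = 0.0469). PSME3 passed in 2 and ZNF90 in 9 of the 12 fits that left out a library. Noncoding genes and a pseudogene were called as well. AC005062.1 changed by 0.83 (SE 0.14, voom adjusted p = 0.00772) and AL355075.3 by -1.42 (SE 0.23, adjusted p = 0.00849). MIR663AHG changed by -1.27 (SE 0.25, adjusted p = 0.0378) and AC243772.3 by -1.45 (SE 0.28, adjusted p = 0.04). They passed in 10, 9, 3 and 3 of these fits.

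**Figure D4:**
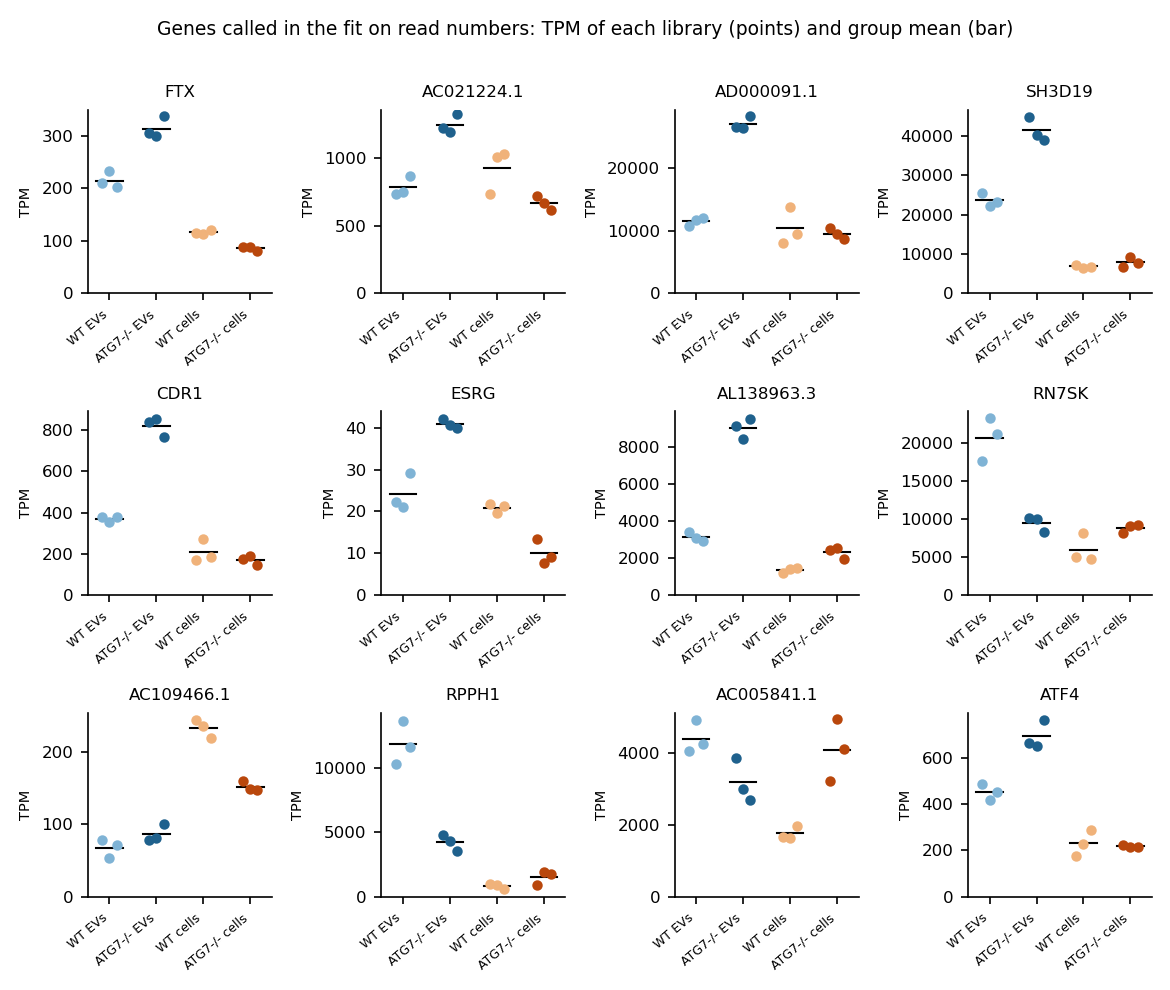
TPM of 12 genes called in the fit on read numbers, for each library (points) of the 4 groups, with the group mean as a bar; each panel starts at 0. FTX, ESRG and RN7SK differ between the genotypes in EVs and in cells in opposite directions, while SH3D19, AD000091.1, CDR1 and ATF4 differ in EVs and overlap in cells.

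Gene lists of the pathway were read by their counts and medians, beside those of all genes tested: a median of 0.21 with 58.5% of estimates above 0 and 0.408% called on TPM, and 0.12 with 54.9% and 0.148% on read numbers. In the LC3 conjugation enzymes, 0 of 11 members passed, with a median of 0.19. ATG10, the gene of the E2-like enzyme that attaches ATG12, was their member of smallest p. It was listed at 1990, 1660 and 1830 TPM in wild-type EVs and 2300, 2260 and 2250 TPM in ATG7-/- EVs. Its change of 0.81 (SE 0.23, limma adjusted p = 0.277) did not pass. These EV levels were far above those listed for ATG7. Whether reads of the opposite strand were counted for ATG10 was not tested, so its TPM need not be that of the enzyme's mRNA. ATG12, the protein that ATG7 activates beside LC3, varied between replicates from 0.326 to 22.6 TPM in EVs and from 6.06 to 16.5 TPM in cells, with a change of -0.58 (SE 1.33, limma adjusted p = 0.933). In the ATG8 family, the proteins that the machinery attaches to lipid, 0 of 5 tested members passed. All 5 estimates were below 0, with a median of -0.88 on TPM, and on read numbers 3 of the 4 tested were below 0 with a median of -0.64. GABARAP stood at 151, 130 and 120 TPM in wild-type EVs and 69.9, 94 and 83.9 TPM in ATG7-/- EVs. Its cell levels were 20.5, 32.6 and 32 TPM in wild type and 33.6, 43.6 and 38.2 TPM in ATG7-/-, so that neither compartment overlapped, and its change was -0.88 (SE 0.4, limma adjusted p = 0.535). Of 12 cargo receptors of selective autophagy, 0 passed, with a median of -0.07. The receptor SQSTM1 (p62) stood at 61.3, 117 and 123 TPM in wild-type EVs and 203, 208 and 173 TPM in ATG7-/- EVs, at like levels in cells of both genotypes, with a change of 1.17 (SE 0.41, adjusted p = 0.422).

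Factors tied to LC3-dependent loading of EVs had a median of 0.34 on TPM and 0.55 on read numbers, and 0 of 18 passed. SSB, the La protein that binds new polymerase III transcripts, was listed at 0, 1.75 and 7.02 TPM in wild-type EVs and 24.2, 33.4 and 24.1 TPM in ATG7-/- EVs, without overlap. Its change of 4.03 (SE 0.85, limma adjusted p = 0.0979) did not pass. The reads of SSB in EVs were 0, 11 and 7 in wild type and 37, 13 and 9 in ATG7-/-. Over the group that is 5.02 and 12.9 RPM, a smaller contrast than in TPM. Its leading transcript is a retained intron of 392 bases, 67.3% of it opposite exons of METTL5. The sorting complexes of multivesicular bodies (ESCRT, 27 tested) and the EV markers with RAB secretion genes (21 tested) had medians of 0.01 and 0.07 with no member passing, and of -0.16 and -0.18 without scaling, where the median of all genes fell from 0.21 to 0.05.

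Of the lists with at least 20 tested members, the lysosome, endoplasmic reticulum chaperone, glycolysis and translation factor lists had the lowest medians on TPM. The lysosome list, genes of the TFEB network, had 14 of 38 estimates above 0 (36.8%, against 58.5% of all genes) and a median of -0.55, and 1 member, MCOLN1, was called (0.408% of all genes were). The endoplasmic reticulum chaperones and translocon had a median of -0.51 with 10 of 33 above 0, glycolysis -0.47 with 5 of 22 above 0, and translation factors -0.46 with 10 of 39 above 0, and none of their members passed. The same 4 medians on read numbers were -0.34, -0.24, -0.42 and -0.30. The proteasome, which degrades tagged proteins, had a median of -0.18 on TPM and 0.09 on read numbers, and the medians of the cargo receptors likewise differed in sign (-0.07 and 0.07). CALR, the chaperone calreticulin, gives an example without a call: 288, 176 and 168 TPM in wild-type EVs and 132, 111 and 111 TPM in ATG7-/- EVs, with a change of -1.03 (SE 0.37, adjusted p = 0.423).

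Nuclear-encoded subunits of the respiratory chain lay above the median of all genes, with 53 of 78 estimates above 0 (67.9%, against 58.5% of all genes), a median of 0.60 on TPM and 0.48 on read numbers, and 1 member called (ATP5PO), where 0.408% of all genes were. Cytosolic ribosomal proteins had 51 of 81 above 0 (63.0%, near the 58.5% of all genes) and a median of 0.34. Their median was 0.41 on read numbers and 0.09 without scaling, where that of all genes was 0.05, and none was called. RPL41, their member of smallest p, stood at 262, 585 and 459 TPM in wild-type EVs and 1210, 705 and 1180 TPM in ATG7-/- EVs. In cells it went from 493, 357 and 512 TPM to 217, 219 and 355 TPM without overlap, and its change of 2.34 (SE 0.48, limma adjusted p = 0.0834) did not pass. Proteins of the mitochondrial ribosome had a median of 0.33 on TPM and 0.09 on read numbers, with MRPL9 called. The effect of the unstated strand setting on the medians of these and the other lists was not tested.

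**Figure D5:**
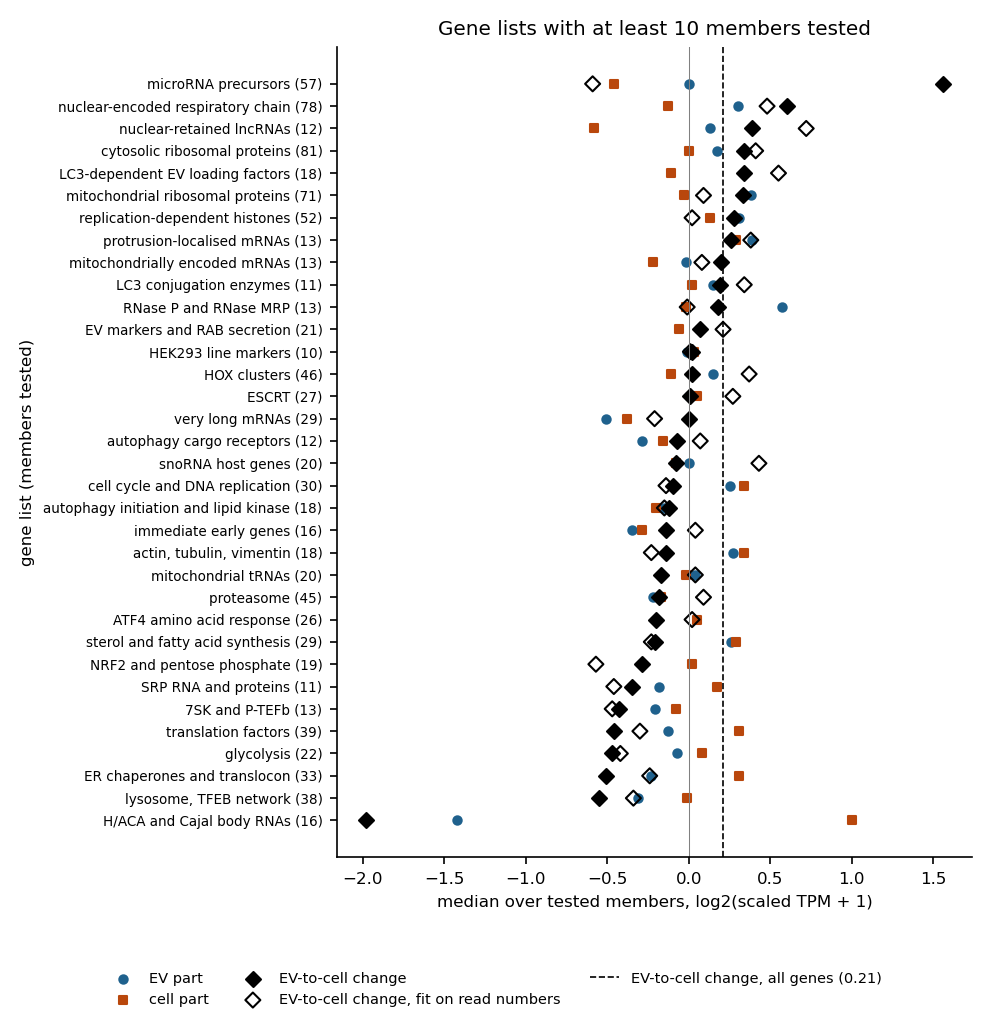
Median over the tested members of each gene list (number tested in brackets) for the EV-to-cell change on TPM (filled diamonds), its EV part (circles) and its cell part (squares), and for the change in the fit on read numbers where at least 5 members were tested (open diamonds); the dashed line is the median of all genes, 0.21. The microRNA precursors change sides between the fits, from 1.56 over 57 members on TPM to -0.59 on read numbers, where only 8 members were tested, and the lysosome, endoplasmic reticulum chaperone, glycolysis and translation factor lists lie below 0 in both.

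Shares of all TPM by class of RNA were compared with an exact permutation test of libraries between genotypes within EVs and within cells, both-sided, whose smallest possible p is 0.005, adjusted over 12 classes. Long noncoding RNAs other than antisense ones rose relative to cells: they made up 9.34%, 8.08% and 9.11% of TPM in wild-type EVs and 11.9%, 15.4% and 12% in ATG7-/- EVs. In cells they made up 11%, 11% and 12.6% in wild type and 10.4%, 10.3% and 9.83% in ATG7-/-. The groups did not overlap in either compartment, and the change was 0.74 on the log2 scale (exact p = 0.005, adjusted p = 0.03). Pseudogenes changed by 0.58 (exact p = 0.005, adjusted p = 0.03), from 6.94% ± 0.119 (SD, n = 3) to 8.72% ± 0.455 in EVs and from 8.18% ± 0.229 to 6.89% ± 0.29 in cells. Most of the rise in EVs came from AD000091.1, which went from a mean of 11500 TPM in wild type to 27000 TPM in ATG7-/-. In cells its means were 10400 and 9510 TPM, a small part of the fall. The change of the class without AD000091.1 was not tested. Ribozymes, mostly RPPH1, held 1.2% ± 0.16 in wild-type EVs and 0.443% ± 0.0682 in ATG7-/- EVs, and 0.104% ± 0.0286 and 0.175% ± 0.0573 in wild-type and ATG7-/- cells. Their change of -2.17 did not pass after adjustment (exact p = 0.015, adjusted p = 0.06). Nuclear protein-coding RNA held 36.9% ± 0.343 of TPM in wild-type EVs and 36.7% ± 1.71 in ATG7-/- EVs, with a change of -0.09 (exact p = 0.19, adjusted p = 0.285).

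The EV-to-cell change of ATG7-/- was set directly against that of ATG12-/-, which lacks the partner of ATG5 in the same conjugation machinery, over all 18 libraries. Of 24647 genes, 29 differed (0.118%), 16 higher and 13 lower in ATG7-/-. Unadjusted p-values under 0.05 numbered 1467. RF02120 and AVIL were among the higher ones, by 8.74 (SE 0.56, limma adjusted p = 2.28e-06) and 5.35 (SE 0.88, adjusted p = 0.0242). SSB was higher by 4.5 (SE 0.8, adjusted p = 0.0412). FTX, AL138963.3, RPPH1, CDR1 and RN7SK were not among the 29. Their differences from ATG12-/- were 0.1 (SE 0.25), 0.0 (SE 0.18), 0.36 (SE 0.4), 0.73 (SE 0.29) and -0.61 (SE 0.28). On TPM their changes in ATG12-/- against wild type were 1.15, 1.03, -2.39, 0.96 and -0.85, in the directions seen in ATG7-/-. A difference that did not pass does not show that the changes were equal. A fit on read numbers called 8 genes in this comparison, and none of the 29 was among them.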

How the data were processed

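Large RNA of EVs and cells was measured in the 12 libraries used here. The authors deposited 1 table of TPM, in which every library is scaled to the same total after division by transcript length, for 203027 transcripts. Salmon 0.14 and DESeq2 appear in the submitters' processing notes without a stated role. Build, annotation and strand setting: not given in the sources used here. Of the transcripts, 202941 matched GENCODE 29 (GRCh38) by identifier and were summed to 57865 genes, and 86 did not match, holding at most 0.0384% of TPM in a library. Gene coordinates come from GENCODE 29.

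Scaling between libraries used the median of ratios. The filter kept genes reaching 1 TPM in 3 or more of the 12 libraries, and limma 3.58.1 (R 4.3.3, mean-variance trend) was fitted to log2(TPM + 1) with 4 groups and no block for replicates, a scale that understates the fold changes of low genes. Adjusted p-values of genes are from limma by Benjamini-Hochberg over all genes tested, both-sided, at a threshold of 0.05. Those of RNA classes are from the exact permutation test, adjusted in the same way over the classes. Errors of TPM are SDs over 3 libraries. Named TPM are as deposited, before scaling. Replicates are biological per the labels, with no culture or date given.

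TPM times a transcript's effective length (fragment mean 250, SD 25, taken from the defaults of the named tool and checked on the values) fell on whole multiples of 1 read. For 51.3% to 57.0% of transcript values of about 1 to 3 reads the result lay within 0.02 of a whole number, against 3.87% to 17.0% with a mean of 200; reads divided between isoforms are not whole. These recovered read numbers gave the depths and a fit with limma's voom on genes with at least 10 reads in at least 3 libraries.

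Named genes were ATG7 and ATG12, the 15 called genes in each direction with the largest change and a group mean of at least 5 TPM, the 10 of smallest p with a group mean of at least 100 TPM, the 2 of smallest p in each list, and, added later, genes called on read numbers and the genes opposite called genes. The genes, the 43 lists and the tests were chosen with earlier results of these data known. The alternatives comprised the pseudocount, the filter, the scaling, the weights, the replicate block and each library left out. The read numbers, the fits on them, the filter on both compartments, separate fits of EVs and cells, and the left-out fits with a fixed gene set were added after seeing the data. The scripts were tested on data simulated at the spread of these libraries. For the fit on TPM the noise was normal on the log2 scale, around means averaged over both genotypes, and no reads were drawn. It therefore cannot show how often genes of single reads are called falsely. Of genes at 5 TPM or more, the fit on TPM recovered 0 of 100 changed 2-fold in ATG7-/- EVs and 5 of 100 changed 4-fold. At 100 TPM or more it recovered 40 of 97 changed 4-fold. With none changed it called 1 gene. A list with no member passing therefore does not show that its members were unchanged.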

Additional observations from a re-analysis of the deposited data

Results flagged for a closer look

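The EV-to-cell ratio differed between ATG7-/- and wild type by a test of the difference itself (limma) in 93 genes on TPM. It differed between ATG7-/- and ATG12-/- by the same test in 29 genes on TPM.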

How the results depend on the processing

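On TPM 93 genes were called. A pseudocount of 0.1 TPM gave 145 and one of 5 TPM gave 55. A filter of 5 TPM in 3 libraries gave 50, a filter of 1 TPM in all 12 libraries gave 0 (693 at an unadjusted p under 0.05), and a filter of 1 TPM in 3 EV and 3 cell libraries gave 10. Sample weights without trend gave 56, weights per compartment gave 58, and leaving out transcripts under 200 bases gave 46. On read numbers the counts were 45 over the same genes and 23 over genes with 10 reads in 3 libraries, and the TPM fit on the latter genes gave 6. No filter (73), no scaling (82), separate scaling (76), a robust fit (74) and all 18 libraries (70) stayed within 1.5 times of 93. These are counts, not the same genes: only 1 of the 93, AC116353.5, was called in every one of the settings above, and the replicate blocks, in which it was tested.

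With 1 library left out, the count on TPM ranged from 12 to 114, and from 65 to 122 with the gene set kept. It was 12, 19 and 16 without wild-type cell replicate 1, 2 or 3 and 59 without ATG7-/- cell replicate 3; when the gene set was kept, these counts were 80, 85, 73 and 65. A gene seen in 3 libraries alone cannot meet the filter once 1 of them is gone. With the gene set kept, 46 of the 93 were called in every left-out fit: 37 of 61 carried by cells, 7 of 23 by EVs and 2 of 9 by both.

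A replicate block by number gave 48 genes, and a block pairing each EV library with the same-numbered cell library gave 94. Same-numbered libraries did not deviate together, so the numbers were not taken as pairs.

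Fitted on 6 libraries alone, the EV part passed in 1 of the 23 genes carried by EVs and the cell part in 40 of the 61 carried by cells. Without mitochondrially encoded RNA the ribozyme share passed, at -2.19 (exact permutation test, adjusted p = 0.045). On read numbers PIAS4 turned to 1.17 and AC017002.3 to 0.32. The comparison with ATG12-/- gave 29 genes on TPM and 8 on read numbers. The cause of these differences was not tested. Depth limits what could be seen: genes tested had a median of 63.0 reads over the 3 libraries of their highest group.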
